A study of Homo sapiens with 12 samples.

Results

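Androgen-handling genes were followed in RNA sequencing of the MDA-PCa-2b line, an established line of human prostate cancer cells. The genes are 10 chosen by name and matched by symbol: the glucuronosyltransferases UGT2B7, UGT2B10, UGT2B11, UGT2B15, UGT2B17 and UGT2B28, the plasma steroid carrier SHBG, and the steroid enzymes SRD5A1, HSD17B6 and AKR1C3. These 10 were chosen with earlier results of these data known. The tables hold 63241 genes, of which 19373 passed the filter on low counts, and 6 of the 10 chosen genes were among them. All 12 libraries come from genetically modified cells grown in a medium with fetal bovine serum, in 4 groups of 3: NT, a first DHODH knockdown (KD1), a second DHODH knockdown (KD2) and a rescue made on the second knockdown (KDR). DHODH is the enzyme of pyrimidine synthesis that sits in the mitochondrial inner membrane. The labels do not say what NT stands for, which construct gave the knockdowns, whether a line is 1 clone, or how the rescue was made. MDA-PCa-2a, a related line, is named in the growth protocol too, and this was not settled.

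Androgens are made, kept in circulation and removed by separate proteins. SRD5A1 reduces testosterone to dihydrotestosterone (DHT), the stronger androgen, AKR1C3 reduces androstenedione to testosterone, and HSD17B6 oxidises androstanediol back to DHT. SHBG, made mainly by the liver, binds testosterone and DHT in plasma. UGT2B enzymes attach glucuronic acid to steroids, which makes them water-soluble and ends their action, and in the prostate UGT2B15, UGT2B17 and UGT2B28 are the members known for acting on androgens.

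Total counts per library ran from 23786288 to 38240369. Levels are counts per 1e6 counts (CPM) scaled by trimmed mean of M values, and each group is given as mean ± SD over n = 3 libraries. A gene was called, and is said to have risen or fallen, where its Benjamini-Hochberg adjusted p from edgeR's quasi-likelihood test over all 19373 genes was under 0.05. Nothing in the labels tells separate cultures from repeated preparations, so each p-value refers to the spread of these libraries, possibly a technical one. The NT libraries varied most, with a biological coefficient of variation of 15.7% against 5.52% to 7.16% in the other groups. NT replicate 2 stood apart from NT replicates 1 and 3 (chi-square per degree of freedom over genes 23.7 and 24.9, against 7.84 between those), and NT replicate 3 had the smallest share of mitochondrial counts (2.59% against 3.37% to 3.70%). Without NT replicate 2, the only call among the 6 tested genes to change was that of HSD17B6 in KDR against NT, and UGT2B17 passed the filter, both given with those genes. DHODH itself was not lower in the libraries labelled as knockdowns: the NT libraries averaged 10.5 ± 2.51 CPM, those of KD1 10.3 ± 0.674, those of KD2 13.1 ± 1.73 and those of KDR 18.6 ± 0.918. In KDR, DHODH was higher than in NT (log2 fold change 0.82, adjusted p = 1.0e-04) and than in KD2 (0.51, adjusted p = 0.0064). The names KD1 and KD2 are used below as labels only. All 12 prostate luminal markers were above 1 CPM in every group. Their summed level was 13828 to 14354 CPM in the KD2 libraries and 20821 to 23952 CPM in the others.

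The UGT2B genes lie in 1 cluster on chromosome 4 and are near copies of each other. On GRCh38, UGT2B17 (ENSG00000197888) spans chr4:68537173-68576413 on the minus strand, UGT2B15 (ENSG00000196620) chr4:68646597-68670652 on the minus strand, and UGT2B10 (ENSG00000109181) chr4:68815994-68832023 on the plus strand. UGT2B7 (ENSG00000171234) spans chr4:69051363-69112987 on the plus strand, UGT2B11 (ENSG00000213759) chr4:69199951-69214748 on the minus strand, and UGT2B28 (ENSG00000135226) chr4:69280475-69295050 on the plus strand. The gap between UGT2B11 and UGT2B28 is 65726 bases. Their coding sequences in GENCODE release 29 were identical at 97.04% of aligned positions (47 of 1590 differed), the closest pair of the 6 genes. UGT2B15 and UGT2B17 followed at 96.55%, and UGT2B15 and UGT2B28 were the least alike at 83.74%. A stretch of the coding sequences of UGT2B11 and UGT2B28, from base 4 to base 93 of each, is shown because it carries 7 of the differences by which reads from the pair are told apart. Capitals mark the differing bases.
UGT2B11: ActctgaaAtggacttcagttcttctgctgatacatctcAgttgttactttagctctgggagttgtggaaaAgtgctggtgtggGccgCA
UGT2B28: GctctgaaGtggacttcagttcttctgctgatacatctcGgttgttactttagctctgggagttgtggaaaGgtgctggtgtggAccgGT
The longest run without a difference in this pair was 110 bases, shorter than the 150-base reads. Every 150-base window of the UGT2B28 transcript was found in no other gene's transcripts, and for UGT2B11 the share was 92.88%. At 50 bases the shares were 64.29% for UGT2B28 and 52.67% for UGT2B11. UGT2B15 and UGT2B17 share a run of 199 bases, and 95.12% of the 150-base windows of each were in no other gene. Reads that map to several places are not counted by default, and how many reads were left out for that reason was not tested. The exons of UGT2B11 also share 435 bases (18.46%) with ENSG00000250696 on the opposite strand, and strand was not used in counting. By default, reads over exons of both genes are counted for neither, while the shared bases stay in the exon length of UGT2B11. That gene was at 0.154 CPM in KDR and at 0.0277 CPM or less in the other groups.

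**Figure D1:**
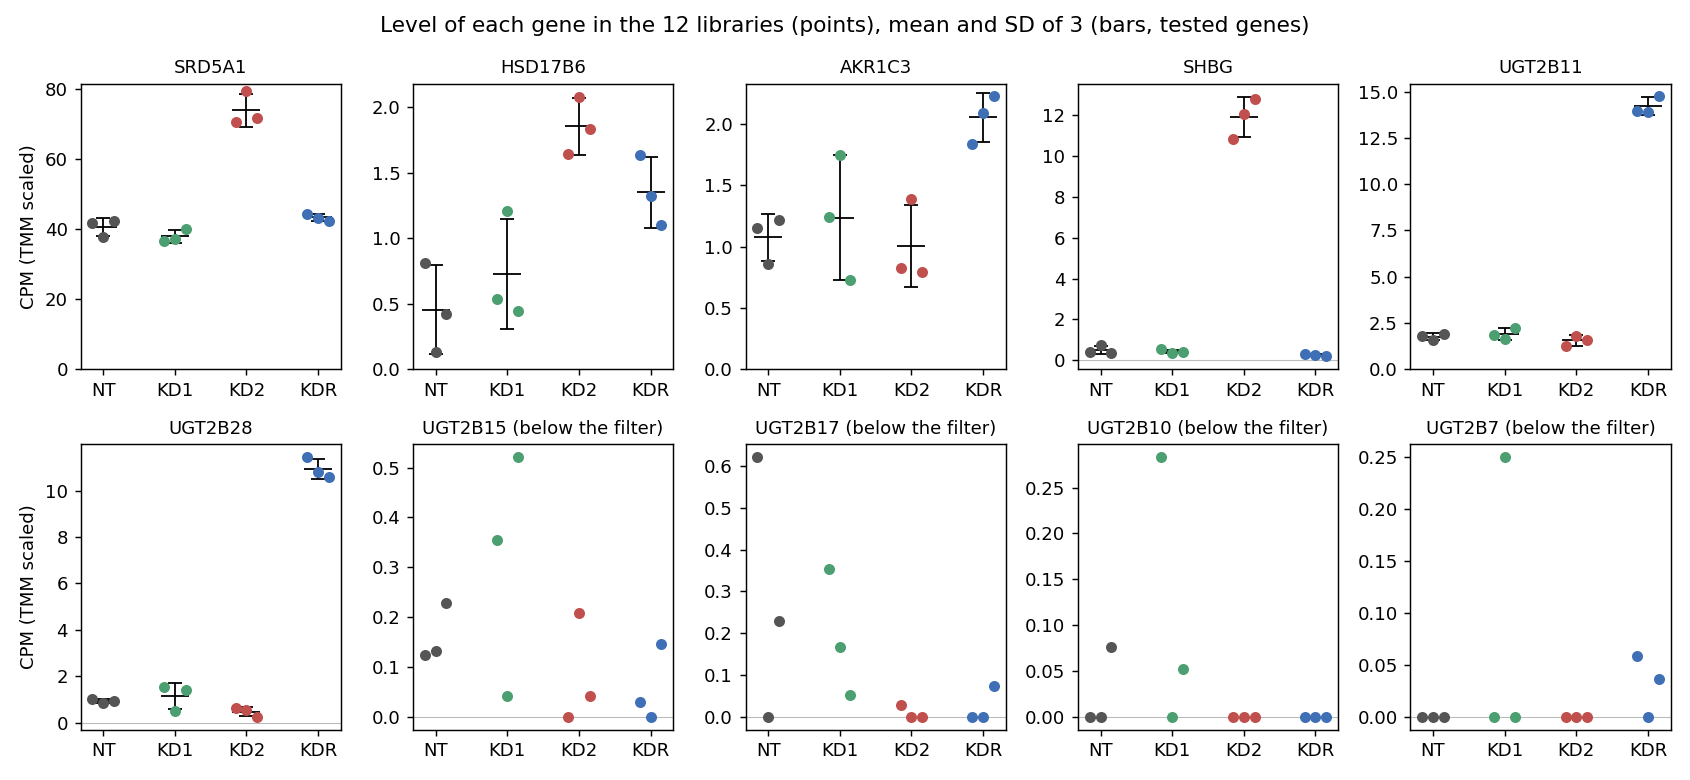
Level of each of the 10 genes (CPM, linear axis, 1 panel per gene with its own scale) in the 12 libraries, grouped as NT, KD1, KD2 and KDR. Points are libraries, and bars, drawn for the 6 genes that passed the filter, are the mean and SD of 3. SHBG and SRD5A1 are highest in the 3 KD2 libraries, and UGT2B11 and UGT2B28 in the 3 KDR libraries.

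The androgen-producing enzymes come first. SRD5A1 (ENSG00000145545, chr5:6633290-6676539, plus strand) was the most abundant of the 10 genes and rose in the libraries labelled KD2. It was at 41.7, 37.8 and 42.3 CPM in the NT libraries, at 36.7, 37.2 and 40.1 CPM in KD1, at 70.8, 79.5 and 71.8 CPM in KD2, and at 44.4, 43.1 and 42.4 CPM in KDR. All 3 KD2 libraries lay above all 9 others. The rise against NT was 1.82-fold (log2 fold change 0.87, 95% interval 0.71 to 1.02, adjusted p = 3.2e-09), and the fall from KD2 to KDR was of like size (log2 fold change -0.77, interval -0.93 to -0.62, adjusted p = 2.6e-08). KDR and NT were not told apart (log2 fold change 0.09, interval -0.06 to 0.25, adjusted p = 0.39). Of the other reductases of the family, SRD5A2, the main isoenzyme of the normal prostate, stayed at 0.108 CPM or less on average in every group, and SRD5A3, which acts in making dolichol, was between 5.04 and 7.66 CPM.

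HSD17B6 (ENSG00000025423, chr12:56752161-56787790, plus strand) was low throughout but higher in both KD2 and KDR than in NT. The NT libraries held 26, 4 and 11 counts (0.807, 0.132 and 0.419 CPM) and the KD1 libraries 15, 29 and 17 (0.531, 1.21 and 0.442 CPM). The KD2 libraries held 58, 60 and 44 counts (1.65, 2.08 and 1.84 CPM) and the KDR libraries 56, 41 and 30 (1.64, 1.32 and 1.10 CPM). No KD2 or KDR library fell within the NT range, and KD1 replicate 2 fell within that of KDR. Against NT, HSD17B6 rose in KD2 by a log2 fold change of 2.01 (interval 1.02 to 3.00, adjusted p = 0.0019) and in KDR by 1.56 (interval 0.56 to 2.56, adjusted p = 0.018). KD2 and KDR were not told apart (log2 fold change -0.45, interval -1.35 to 0.45, adjusted p = 0.47). NT replicate 2, with its 4 counts, and NT replicate 1 set much of the size: the KD2 value was 1.57 without the first and 2.76 without the second, both still called. The KDR call was lost without NT replicate 2 (1.11, adjusted p = 0.058) and without KDR replicate 1 (1.40, adjusted p = 0.074), and the value was 2.31 without NT replicate 1 (adjusted p = 0.0029). HSD17B6 shares 132 exon bases (5.81%) with PRIM1, a DNA primase subunit on the opposite strand, whose mean was 12.3 CPM in KD2 and 8.23 to 8.83 CPM in the other groups. By default, reads over exons of both genes are counted for neither. The part of other reads from PRIM1, outside the shared bases, in the counts of HSD17B6 was not tested.

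AKR1C3 (ENSG00000196139, chr10:5035354-5107686, plus strand) was also low and was highest in KDR. It was at 1.15, 0.859 and 1.22 CPM in NT, at 1.24, 1.75 and 0.729 CPM in KD1, at 0.823, 1.39 and 0.793 CPM in KD2, and at 1.84, 2.10 and 2.23 CPM in KDR. The 3 KDR libraries, with 61 to 65 counts each, lay above all 9 others. AKR1C3 rose from KD2 to KDR by a log2 fold change of 1.03 (interval 0.30 to 1.76, adjusted p = 0.028). The call was lost in 4 of the 18 alternative fits, without KD2 replicate 1 (adjusted p = 0.11), KD2 replicate 3 (0.097), KDR replicate 2 (0.068) or KDR replicate 3 (0.081). Against NT the value was 0.93 (interval 0.21 to 1.66) and missed the threshold (adjusted p = 0.051), with a range of 0.037 to 0.13 over the alternatives. AKR1C2, which lies beside AKR1C3 and inactivates DHT, was at 2.00 ± 0.591 CPM in NT, 1.43 ± 0.311 in KD2 and 4.93 ± 1.37 in KDR, and rose from KD2 to KDR (log2 fold change 1.77, adjusted p = 3.3e-05). It is described for its place and was chosen after its values were seen. At 150 bases, 98.67% of AKR1C3 windows were in no other gene, and the remaining windows matched AKR1C2.

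SHBG (ENSG00000129214, chr17:7613946-7633382, plus strand), the binding protein, showed the largest fold change of the 6 tested genes. It was at 0.404, 0.727 and 0.381 CPM in the NT libraries (13, 22 and 10 counts) and at 0.531, 0.374 and 0.390 CPM in KD1 (15, 9 and 15 counts). The KD2 libraries held 382, 348 and 307 counts (10.8, 12.1 and 12.8 CPM), and the KDR libraries 11, 8 and 6 (0.322, 0.258 and 0.219 CPM). Every KD2 library was far above every other library, and the other 3 groups lay within 0.219 to 0.727 CPM. The rise from NT to KD2 was 23.3-fold (interval 16.1 to 33.8, adjusted p = 2.6e-12), the 39th largest of the 3439 rises called in that comparison. From KD2 to KDR, SHBG fell by 5.44 on the log2 scale (interval -6.03 to -4.86, adjusted p = 4.7e-13), the 16th largest of 3313 falls. KDR was below NT in all 3 libraries with a log2 fold change of -0.90 (interval -1.64 to -0.17), which missed the threshold (adjusted p = 0.063) and passed it without NT replicate 1 (adjusted p = 0.047) or NT replicate 3 (0.041).

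SHBG has 3 transcription starts in the RefSeq promoter table (GRCh38.p14), and the counts are per gene, so the start used in KD2 is not known from them. The 100 bases before each start are shown on the plus strand, because they are where the starts differ.
SHBG chr17:7613964-7614063: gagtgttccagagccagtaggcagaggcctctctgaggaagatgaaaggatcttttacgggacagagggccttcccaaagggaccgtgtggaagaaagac
SHBG chr17:7627461-7627560: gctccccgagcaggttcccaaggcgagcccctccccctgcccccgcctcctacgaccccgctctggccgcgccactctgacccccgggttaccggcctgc
SHBG chr17:7630035-7630134: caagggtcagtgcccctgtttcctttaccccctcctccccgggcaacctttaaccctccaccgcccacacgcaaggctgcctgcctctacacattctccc
The exons of SHBG overlap those of no other gene, and all of its 50-base windows were in no other gene. Within 20000 bases, SAT2, a polyamine acetyltransferase family member, was at 37.9 CPM in NT and 23.3 in KD2, and FXR2, an RNA-binding protein gene, at 56.6 and 49.95 CPM. ATP1B2, a sodium pump subunit, was at 0.0621 CPM in NT and 0.450 in KD2. Since SHBG is chiefly a liver product, 12 hepatocyte markers were read beside it: their sum was 7.13 to 8.79 CPM in NT, 6.70 to 8.09 in KD1, 6.14 to 8.15 in KD2 and 4.50 to 5.74 in KDR. APOH, FGB and FGG were at 0 in every library, and albumin (ALB) averaged 0.170 CPM or less in every group. Of the 3 hepatocyte markers that passed the filter, edgeR called none between KD2 and NT, with 1 at an unadjusted p under 0.05. In that comparison 35.9% of all genes were called, and 3 genes are too few to show a lack of change. CYP2E1 was called higher in KD2 than in KD1 (log2 fold change 1.69, adjusted p = 0.026). SERPINA1 was called lower in KDR than in KD2 (-1.42, adjusted p = 4.2e-05) and than in NT (-1.90, adjusted p = 9.9e-07).

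**Figure D2:**
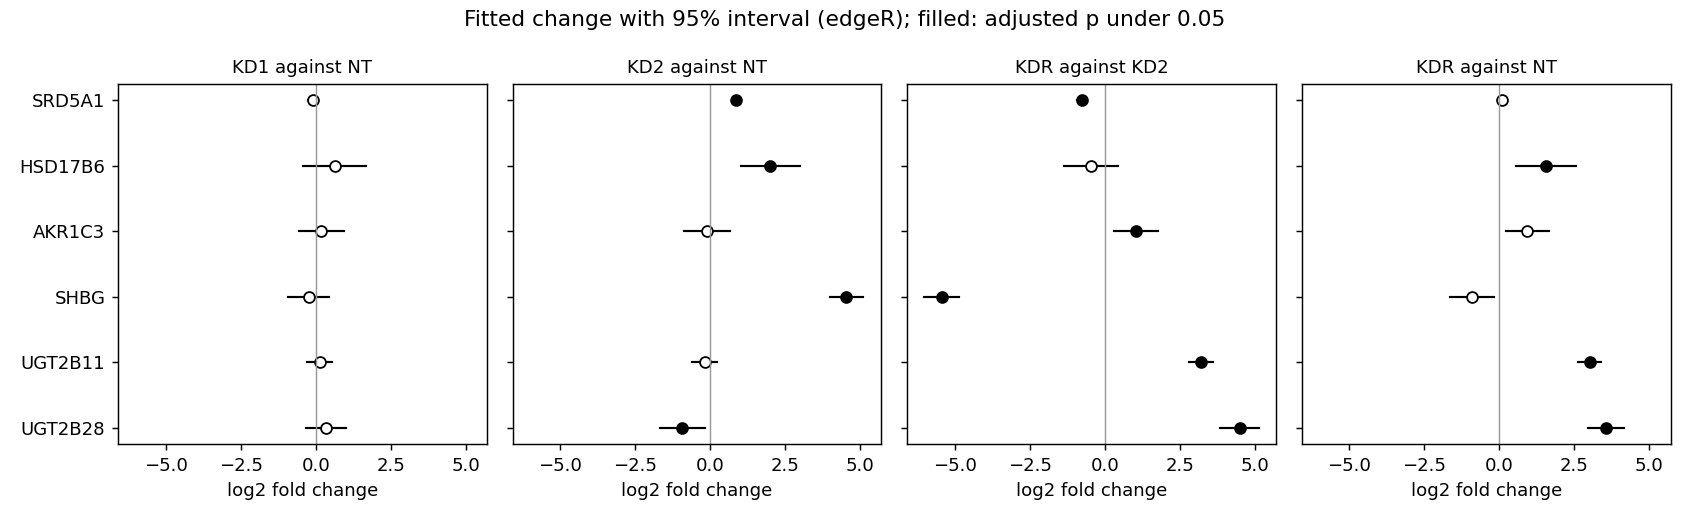
Log2 fold change (points) with its 95% interval (lines) for the 6 tested genes in KD1 against NT, KD2 against NT, KDR against KD2 and KDR against NT (panels), filled where the adjusted p was under 0.05. SHBG stands at 4.54 in KD2 against NT and at -5.44 in KDR against KD2, and no gene was called in KD1 against NT.

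Of the 6 inactivating enzymes, UGT2B11 and UGT2B28 passed the filter, and both were highest in the libraries labelled KDR. UGT2B11 was at 1.80, 1.55 and 1.91 CPM in NT, at 1.84, 1.62 and 2.21 CPM in KD1, at 1.25, 1.81 and 1.59 CPM in KD2, and at 14.0, 13.9 and 14.8 CPM in KDR (478, 432 and 404 counts). The KDR libraries stood apart, while the 9 others overlapped across groups. Against NT the rise in KDR was 8.11-fold (interval 6.21 to 10.6, adjusted p = 2.5e-11), and against KD2 it was 9.24-fold (interval 7.04 to 12.1, adjusted p = 5.2e-12). UGT2B11 in KD2 and NT was not told apart (log2 fold change -0.19, interval -0.62 to 0.24, adjusted p = 0.53).

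UGT2B28, a glucuronosyltransferase with testosterone and androstanediol among its known substrates, moved in the same comparisons and also fell in KD2. It was at 1.02, 0.826 and 0.915 CPM in NT (33, 25 and 24 counts), at 1.52, 0.499 and 1.41 CPM in KD1, at 0.624, 0.521 and 0.250 CPM in KD2 (22, 15 and 6 counts), and at 11.4, 10.8 and 10.6 CPM in KDR (391, 335 and 290 counts). Every KDR library was above every other library. The rise in KDR was 11.8-fold against NT (interval 7.80 to 17.9, adjusted p = 2.4e-09), the 75th largest of 2522 rises, and 22.6-fold against KD2 (interval 14.4 to 35.5, adjusted p = 1.2e-10). The KD2 libraries lay below the NT libraries, and the fall just passed the threshold (log2 fold change -0.93, interval -1.68 to -0.19, adjusted p = 0.047). That call rests on few counts and was lost in 8 of 18 alternative fits. These were the fit of the 2 groups alone (adjusted p = 0.15) and the fits without NT replicate 1 (0.12), NT replicate 3 (0.074), KD2 replicate 2 (0.082), KD2 replicate 3 (-0.67, adjusted p = 0.19) or any 1 of the KDR libraries (0.063 to 0.064). In KDR, UGT2B11 held 1314 counts and UGT2B28 held 1016. The part of reads assigned to the wrong copy of the pair was not tested.

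UGT2B7, UGT2B10, UGT2B15 and UGT2B17 did not pass the filter. UGT2B17, which clears DHT and testosterone, held 20, 0 and 6 counts in NT, 10, 4 and 2 in KD1, 1, 0 and 0 in KD2, and 0, 0 and 2 in KDR. NT replicate 1 held most of its NT counts. UGT2B15, its close copy, held 4, 4 and 6 counts in NT, 10, 1 and 20 in KD1, 0, 6 and 1 in KD2, and 1, 0 and 4 in KDR. UGT2B10, known for glucuronidating nicotine, held 12 counts over the 12 libraries, none of them in KD2 or KDR. UGT2B7, which acts on opioids as well as steroids, held 9 counts over the 12 libraries, with 6 of them in KD1 replicate 2. Were each count a separate fragment, a count of 0 would allow a limit of 3, which is 0.0781 to 0.125 CPM across the libraries. No pair option was set in counting, so the reads of a pair are counted singly and the limit lies higher. It covers counting error only. With no filter, UGT2B17 was called lower in KD2 than in NT (log2 fold change -4.26, adjusted p = 0.030), a value that depends on the prior count because KD2 held 1 count in all, and no other value of the 4 genes was called in any of the 5 comparisons. Leaving out some single libraries also let UGT2B17 pass the filter and be called in KD2 against NT (-4.83, adjusted p = 0.0061 without NT replicate 2), and without NT replicate 2 it was also called lower in KDR than in NT (-4.05, adjusted p = 0.015) and in KD2 than in KD1 (-3.64, adjusted p = 0.041).

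**Figure D3:**
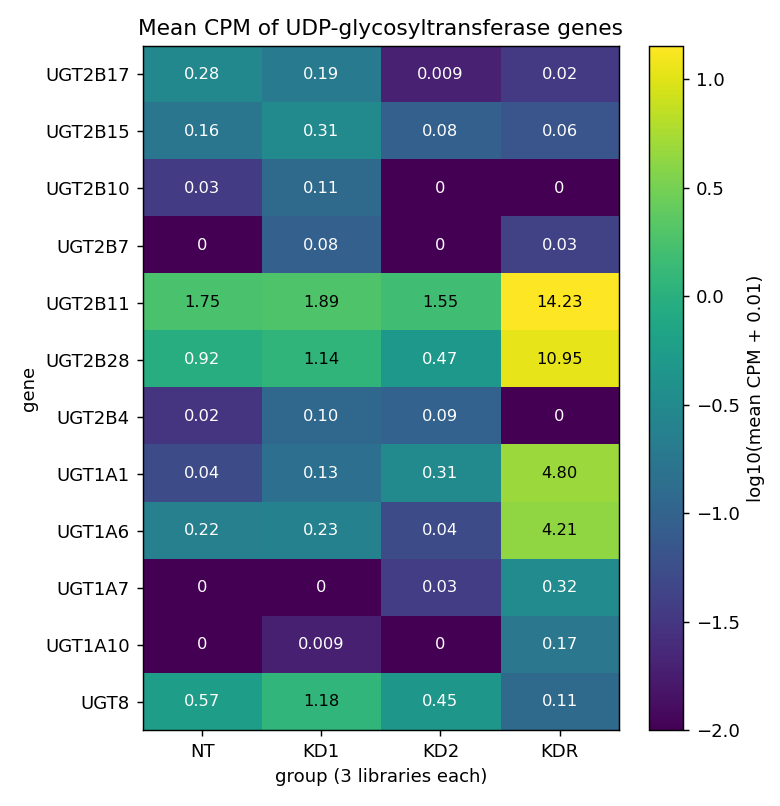
Mean level of 12 UGT genes (rows) in the 4 groups (columns), as a colour scale of log10(mean CPM + 0.01) with the mean CPM written in each cell. UGT2B11 and UGT2B28 reach 14.2 and 10.9 CPM in KDR, UGT1A1 and UGT1A6 reach 4.80 and 4.21 CPM, and UGT2B7, UGT2B10, UGT2B15 and UGT2B17 stay below 1 CPM in all groups.

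UGT2B10, with 12 counts over the 12 libraries, and UGT2B11, high in KDR, are much alike before their starts. In the RefSeq promoter table, which matched 7 of the 10 genes, the 250 bases before the starts of UGT2B10 and UGT2B11 were identical at 90.16% of 254 aligned positions, and the next closest pair among UGT2B7, UGT2B10, UGT2B11 and UGT2B15 was UGT2B11 and UGT2B15, at 182 of 260 positions. Both are shown 5′ to 3′ along the gene, with capitals where they differ, insertions included. Whether these bases bear on the level of either gene was not tested.
UGT2B10 chr4:68815744-68815993 (plus strand): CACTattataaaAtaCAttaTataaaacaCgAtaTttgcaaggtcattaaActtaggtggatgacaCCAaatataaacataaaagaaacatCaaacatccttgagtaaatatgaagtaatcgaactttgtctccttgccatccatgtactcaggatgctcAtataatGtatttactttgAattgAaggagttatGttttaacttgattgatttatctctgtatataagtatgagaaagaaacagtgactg
UGT2B11 chr4:69214749-69214998 (minus strand): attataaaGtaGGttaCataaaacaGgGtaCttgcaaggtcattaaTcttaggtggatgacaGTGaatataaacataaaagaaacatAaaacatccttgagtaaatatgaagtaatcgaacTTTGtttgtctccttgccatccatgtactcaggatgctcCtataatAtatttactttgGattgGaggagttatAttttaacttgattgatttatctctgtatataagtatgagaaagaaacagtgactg
Searched on both strands, both held 1 copy of the nuclear receptor motif AGGTCA, present in 12.08% of 35116 promoters of that length, and 1 of the forkhead motif TGTTTAT (3.77%). UGT2B10 held 3 copies of TATAAA and UGT2B11 held 2 (10.72% of promoters). Of the other genes matched, UGT2B15 held 2 copies of AGGTCA and SHBG 1, UGT2B7 held 1 of TGTTTAT, and AKR1C3 held 1 of TATAAA. The androgen response element half-site AGAACA (12.39%) and the forkhead motif TGTTTAC (2.98%) were in UGT2B15 only, with 1 copy each. GTTAAT (6.23%), bound by HNF1 proteins, was in none of the 7 genes. These matches describe the letters of the windows.

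Between 3 and 5 of the 6 tested genes were called in 4 of the 5 comparisons, and 0 in KD1 against NT. The comparisons share libraries, so their values are given side by side and not as repeats of each other. Between KD2 and NT, 3 of 6 rose (SHBG, HSD17B6 and SRD5A1) and 1 fell (UGT2B28), where 35.9% of all genes tested were called. Between KDR and KD2, 3 rose (UGT2B28, UGT2B11 and AKR1C3) and 2 fell (SHBG and SRD5A1), against 32.4% called. Between KDR and NT, 3 rose (UGT2B28, UGT2B11 and HSD17B6) and none fell, against 27.5% called. Between KD2 and KD1, SHBG (log2 fold change 4.77, adjusted p = 1.6e-12), SRD5A1 (0.96, adjusted p = 6.1e-10) and HSD17B6 (1.38, adjusted p = 0.021) were higher in KD2, and UGT2B28 was lower (-1.27, adjusted p = 0.0060), against 35.5% called. In that comparison the UGT2B28 libraries overlapped, and the HSD17B6 call was lost without KD1 replicate 1 (adjusted p = 0.087), KD1 replicate 3 (0.11) or KD2 replicate 2 (0.068). The median log2 fold changes of the 6 genes were 0.38 in KD2 against NT, 0.29 in KDR against KD2, 1.25 in KDR against NT and 0.34 in KD2 against KD1, where those of all genes tested lay between -0.0099 and 0.0162. These medians do not describe a shared change, as the genes moved in opposite directions. In KDR against KD2 they ran from -5.44 (SHBG) to 4.50 (UGT2B28). The genes were also chosen with earlier results of these data known.

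KD1 and NT were not told apart in any of the 6 genes. edgeR called 0 of 6, with 0% of all genes called, and DESeq2 also called 0. At an unadjusted p under 0.05 stood 0 of the 6 and 1185 of the 19373 genes tested. The intervals bound what could have been missed: for SRD5A1 the log2 fold change was -0.09 (interval -0.25 to 0.06), for UGT2B11 0.13 (-0.29 to 0.54), and for SHBG -0.23 (-0.91 to 0.45). They were wider for UGT2B28 at 0.34 (-0.32 to 1.00), AKR1C3 at 0.18 (-0.57 to 0.93) and HSD17B6 at 0.63 (-0.42 to 1.67).

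Per kilobase of exon, which allows levels of different genes to be set side by side, SRD5A1 led the NT libraries at 4.05 CPM per kb. UGT2B11 followed at 0.744, then UGT2B28 at 0.496, AKR1C3 at 0.275, SHBG at 0.256 and HSD17B6 at 0.199 CPM per kb. In KD2 the order was SRD5A1 (7.38 CPM per kb), SHBG (6.04), HSD17B6 (0.817), UGT2B11 (0.656), AKR1C3 (0.256) and UGT2B28 (0.251). In KDR, UGT2B11 (6.04 CPM per kb) and UGT2B28 (5.89) stood above SRD5A1 (4.32), with HSD17B6 (0.595), AKR1C3 (0.526) and SHBG (0.135) below. On this scale the library ranges of several neighbours in the order overlapped. In NT these were AKR1C3, SHBG and HSD17B6. In KD2 they were HSD17B6 with UGT2B11, and AKR1C3 with UGT2B28. In KDR they were UGT2B11 with UGT2B28, and HSD17B6 with AKR1C3. The exon lengths are those of all transcripts of a gene together, and the order turns in part with the length of 1 transcript. Per kilobase of the GENCODE transcript, SRD5A1 in KDR (6.07) lay between UGT2B11 (6.81) and UGT2B28 (5.97), AKR1C3 (1.14) was above HSD17B6 (0.894) there, and AKR1C3 in NT (0.595) was above UGT2B28 (0.503), while the KD2 order did not turn.

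Other genes of steroid synthesis and conversion changed in both directions in KD2. Of 31 listed, 18 passed the filter. Between KD2 and NT 3 of these rose and 5 fell (median log2 fold change -0.17), where 17.8% of all genes rose and 18.2% fell. The list also holds genes that do not themselves convert androgens, such as STAR, CYB5A, POR and HSD11B2. Among the calls were HSD11B2, which rose (0.39, adjusted p = 1.7e-04), and CYB5A, which fell (-0.42, adjusted p = 7.3e-06). HSD17B4, a peroxisomal enzyme of fatty acid oxidation that also oxidises estradiol, was at 258 ± 6.34 CPM in NT, 162 ± 8.32 in KD2 and 237 ± 2.87 in KDR (KD2 against NT -0.67, adjusted p = 5.5e-10). HSD17B8 fell from 19.5 ± 1.63 to 8.49 ± 0.461 CPM (adjusted p = 5.6e-09) and was at 19.1 ± 0.786 CPM in KDR. HSD17B2, which oxidises testosterone to androstenedione, fell from 38.3 ± 0.891 to 22.2 ± 1.06 CPM (adjusted p = 7.0e-08) and was at 36.8 ± 2.15 CPM in KDR. HSD17B11, a lipid droplet enzyme that oxidises androstanediol, rose from 17.5 ± 2.22 to 38.3 ± 3.02 CPM (adjusted p = 1.1e-08) and was at 20.5 ± 0.386 CPM in KDR. Between KDR and KD2, 8 of the 18 rose and 4 fell (15.3% and 17.1% of all genes), and between KDR and NT 2 rose and 1 fell (27.5% called in either direction).

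The other routes of removal changed in part. Of the other UGT genes, 3 of 16 passed the filter. UGT1A1, the bilirubin glucuronosyltransferase, held 1, 3 and 0 counts in NT, 5, 4 and 2 in KD1, 12, 7 and 8 in KD2, and 200, 125 and 124 in KDR (adjusted p = 7.7e-08 for KDR against KD2). UGT1A6, which acts on simple phenols, held 11, 2 and 7 counts in NT and 2, 2 and 0 in KD2, and 4.39, 4.19 and 4.06 CPM in KDR (adjusted p = 5.3e-09). Both were high in the same 3 libraries as UGT2B11 and UGT2B28. Outside KDR they held 12 counts or fewer per library, so they passed the filter only through the group where they were high. Their being tested and high there is therefore not separate support. UGT8, the other tested gene of this list, was lower in KDR than in NT (log2 fold change -2.33, adjusted p = 0.019) and than in KD2 (-2.03, adjusted p = 0.039). The UGT1A genes share their last exons, and reads over exons of more than 1 gene are not counted by default, so these counts come from the parts that are their own. Of 7 genes that make, use or carry UDP-glucuronic acid or cleave glucuronides, all were tested, and 2 were called in KD2 against NT, where 35.9% of all genes were. UXS1, which turns UDP-glucuronic acid into UDP-xylose and so uses the donor, rose (log2 fold change 0.29, adjusted p = 0.0034), and UGP2, which makes the UDP-glucose that precedes it, fell (-0.32, adjusted p = 0.0016). UGDH, which makes UDP-glucuronic acid, was between 93.3 and 105 CPM in all groups. In KDR, 2 of the 7 fell and 0 rose against NT, and likewise against KD2, where 14.5% and 17.1% of all genes fell. SLC35D1 fell in both, from 36.3 CPM in NT and 37.3 in KD2 to 26.5 in KDR (adjusted p = 4.4e-04 and 1.4e-04). Of 6 tested genes of sulfation and oxidation, 2 rose and 2 fell in KD2, against the same 35.9% called, among them PAPSS1 (0.50, adjusted p = 4.9e-07) and PAPSS2 (0.81, adjusted p = 7.7e-05), which make the sulfate donor, and SULT2B1, a steroid sulfotransferase (-0.73, adjusted p = 7.4e-05). PAPSS2 was at 11.3 ± 2.57 CPM in NT, 19.8 ± 1.93 in KD2 and 5.77 ± 0.390 in KDR, below NT in the last (-0.97, adjusted p = 3.4e-05).

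Of 18 steroid and conjugate transporters and carriers listed, 9 passed the filter, and 6 rose and 2 fell in KD2 against NT (median log2 fold change 0.76), where 17.8% and 18.2% of all genes did. ABCC11, an exporter of steroid sulfates, fell from 512 ± 34.4 to 132 ± 5.82 CPM (-1.95, adjusted p = 6.9e-18) and was at 518 ± 2.80 CPM in KDR. ABCC4, an exporter of conjugated steroids and prostaglandins, rose from 61.2 ± 1.63 to 124 ± 4.68 CPM (1.02, adjusted p = 1.3e-11) and was at 75.7 ± 0.550 CPM in KDR. ABCC1 was at 319 ± 15.4 CPM in NT, 540 ± 16.3 in KD2 (adjusted p = 2.6e-11) and 451 ± 6.69 in KDR. The prostaglandin transporter SLCO2A1 was at 39.8 ± 7.72, 70.3 ± 2.13 and 51.6 ± 2.41 CPM in NT, KD2 and KDR (0.82 for KD2 against NT, adjusted p = 4.2e-07). Between KDR and NT, 5 of the 9 rose and none fell, against 27.5% of all genes called in either direction.

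**Figure D4:**
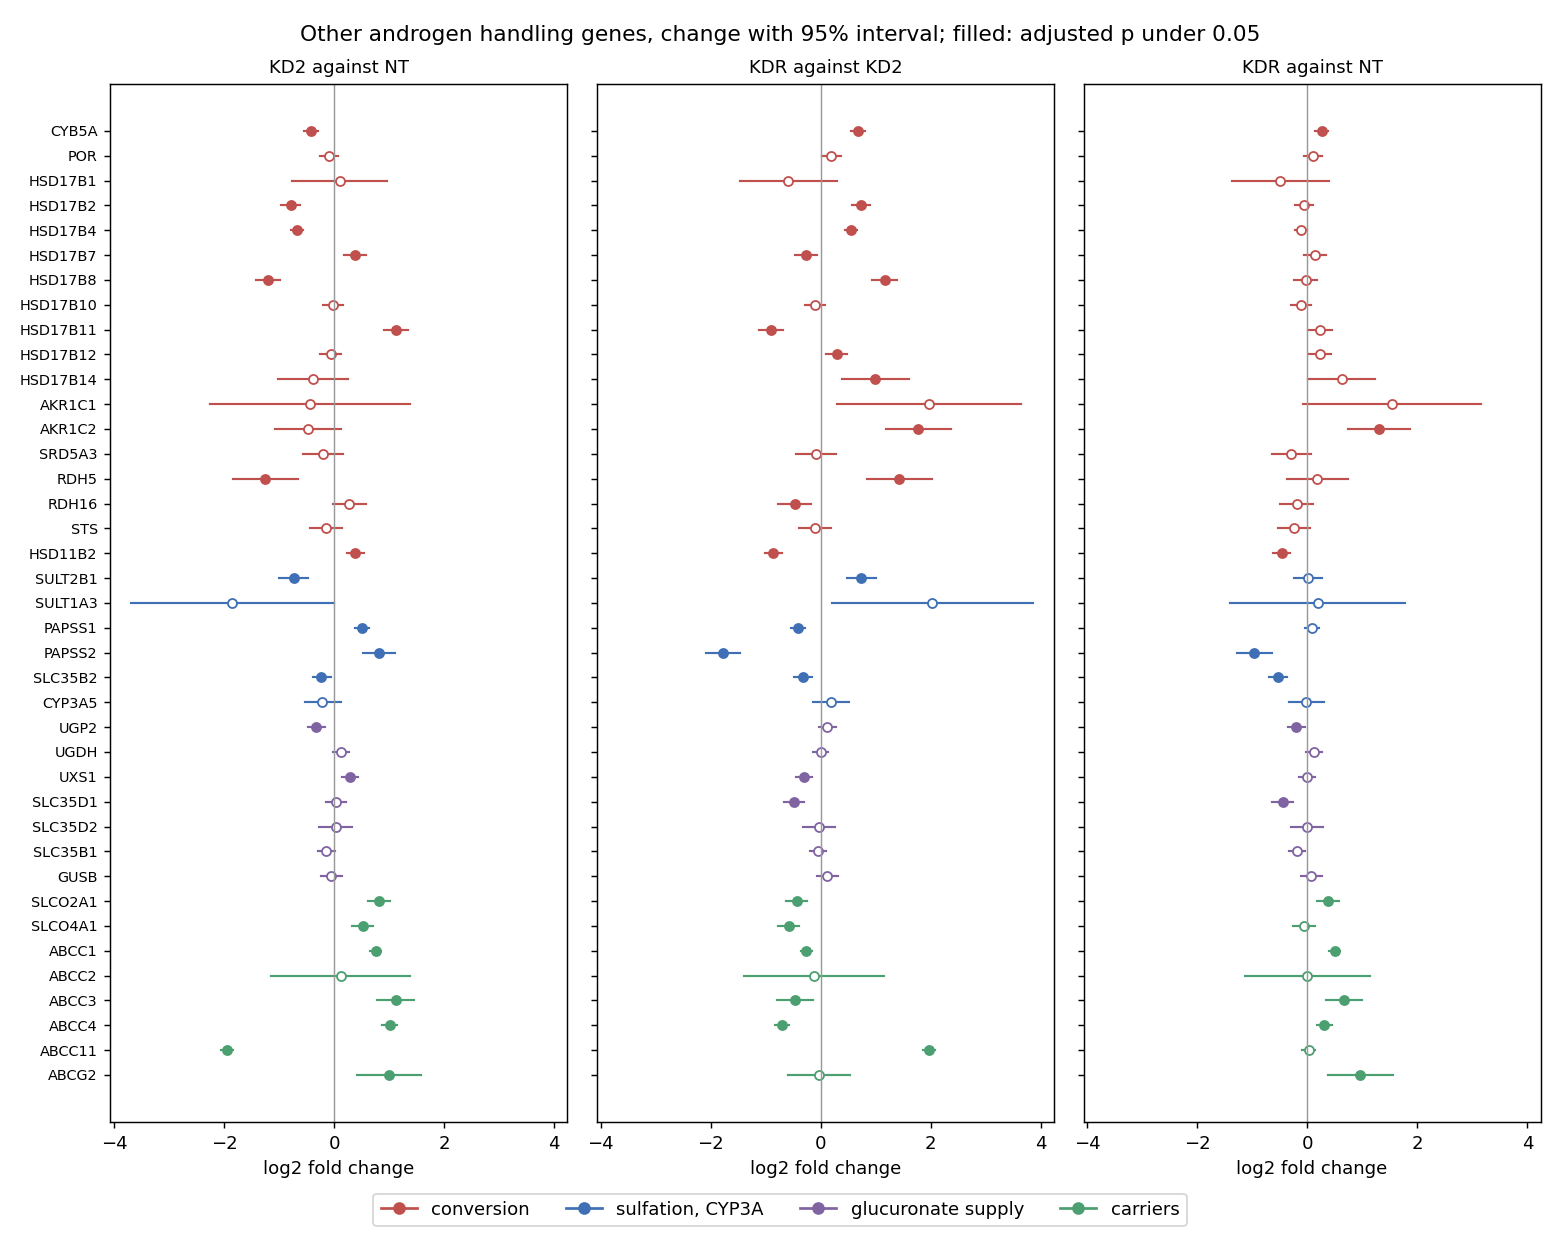
Log2 fold change (points) with its 95% interval (lines) of 39 tested genes (rows) in KD2 against NT, KDR against KD2 and KDR against NT (panels), coloured by list: steroid synthesis and conversion (labelled conversion), sulfation and CYP3A, handling of UDP-glucuronic acid (labelled glucuronate supply), and carriers. Filled points have an adjusted p under 0.05, ABCC11 lies at -1.95 in KD2 against NT and at 1.97 in KDR against KD2, and SLCO1A2 is left out because it was at 0 counts in KD2.

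Among 16 transcription factors known to act on UGT2B genes, 11 passed the filter, and 3 rose and 2 fell in KD2 against NT (median log2 fold change 0.05), where 35.9% of all genes were called. VDR, the vitamin D receptor (0.66, adjusted p = 3.8e-07), POU2F1 (0.56, adjusted p = 1.2e-05) and FOXA1 (0.17, adjusted p = 0.0023) rose, and CEBPB fell (-0.82, adjusted p = 4.0e-07). In KDR against NT, 3 rose and 2 fell, against 27.5% of all genes called. FOXA1 also stands in the list of prostate luminal markers, of which 10 of 12 fell and 1 rose in KD2 against NT, and 10 rose and none fell in KDR against KD2. Of all genes, 18.2% fell in the first comparison and 15.3% rose in the second. In bulk RNA, fewer cells of a type and less RNA per cell cannot be told apart. FOLH1, the prostate membrane antigen, was at 1491 ± 75.2 CPM in NT, 290 ± 3.29 in KD2 and 1072 ± 21.0 in KDR, and KLK3, which encodes prostate-specific antigen, at 8955 ± 1235, 6282 ± 84.3 and 8089 ± 141 CPM. KLK3 was chosen after its values were seen. The part of these shifts in the changes of SHBG, SRD5A1 and the UGT2B genes was not tested.

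Genes whose log2 CPM followed each tested gene most closely over the 12 libraries are given as a description. They were taken among 10382 protein-coding genes of at least 5 CPM, and the libraries of a group share their treatment, so high values are common. For SHBG these were PDIA4, a disulfide isomerase of the endoplasmic reticulum (Pearson r = 0.996), ASAP2 (0.994) and SSTR5, a somatostatin receptor (0.994). SSTR5 averaged 35.4 CPM in KD2 and 5.87 to 7.00 CPM in the other groups. For SRD5A1 they were MGAT5 (0.988), CRACD (0.987) and CHD6 (0.986), for UGT2B11 ZFTRAF1, the metal carrier SLC39A8 and the inositol carrier SLC2A13 (0.991 each), and for UGT2B28 GDAP1 (0.977), ELOVL5 (0.976) and USP3 (0.975). SLC2A13 was at 14.1, 15.4 and 10.7 CPM in NT, KD1 and KD2 and at 101 CPM in KDR. The likeness was looser for HSD17B6 (CARNMT1 0.946, DPY19L3 0.944, MAPRE1 0.934) and AKR1C3 (ZNF514 0.912, RARS2 0.888, ING4 0.887), the genes with fewest counts.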

How the data were processed

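RNA of 12 libraries was selected for poly-A and sequenced as 150-base pairs, per the labels' protocols. The authors deposited raw counts per gene, made with featureCounts 1.6.4 over exons of Ensembl release 111 on GRCh38 with no strand, pair or multi-mapping option, per the file headers. FastQC, cutadapt and HISAT2 are named in the submitters' processing notes, each with its version not given in the sources used here.

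The counts were tested with edgeR 4.0.16 in R 4.3.3 (filterByExpr, TMM, quasi-likelihood, 1 fit of 12 libraries, group the only term, prior count 2 for log values). The script was tested on simulated data. Alternatives were DESeq2 1.42.0, other scaling, other filters, fewer groups, a replicate block and leaving out each library. Symbols came from a gene table that named 62666 of 63241 identifiers. All 10 genes were named, with up to 4 genes per list of smallest adjusted p in KD2 against NT and the 3 closest genes of each tested gene. The members and lists were chosen with earlier results of these data known. Libraries of a group differed beyond counting noise (chi-square per degree of freedom at least 3.73), so none was a copy.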

Additional observations from a re-analysis of the deposited data

How the results depend on the processing

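Over 18 alternatives, the 30 log2 fold changes of the 6 tested genes gave 540 values. Of these, 515 kept their side of the threshold, 17 lost their call, 8 gained one and 0 of the called values reversed. Values not called in either fit could change sign and still be among the 515. AKR1C3 in KD2 against NT, for example, ran from -0.41 to 0.03. The lost calls were those of UGT2B28 (KD2 against NT), AKR1C3 (KDR against KD2) and HSD17B6 (KDR against NT, KD2 against KD1), and the gained ones those of AKR1C3 and SHBG in KDR against NT. Called members numbered 3 to 5 without each library in turn in KD2 against NT, 4 to 5 in KDR against KD2, 2 to 4 in KDR against NT and 3 to 5 in KD2 against KD1. These counts include UGT2B17 where it passed the filter. With no filter on low counts, 23 genes were called in KD1 against NT (17 higher, 6 lower), and the cause was not tested. Same-numbered libraries showed little shared variation (1 of 18 pairs correlated above 0.1). With 3 libraries per group, this cannot show whether the numbers pair them. With the replicate block, 6882 genes were called in KD2 against NT (6958 without it), and no call of the 6 genes changed. Low counts limit HSD17B6, AKR1C3, SHBG outside KD2, UGT2B28 outside KDR and the 4 untested UGT2B genes.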
